A study of Sus scrofa with 30 samples.

Results

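Trimethylation of histone H3 at lysine 4 (H3K4me3) was compared between 2-cell and 1-cell pig embryos, the interval of the first cell division. The members were the 4 H3K4me3 peak lists whose labels name these stages, 2 libraries from 2-cell embryos and 2 from 1-cell embryos, out of 18 H3K4me3 libraries and 30 libraries in the whole study. The study used ULI-NChIP-seq, a native chromatin immunoprecipitation for very few cells, on oocytes and on embryos made by fertilisation in vitro, with H3K27me3 as a second mark. Embryos of both stages were untreated. The other H3K4me3 groups were germinal vesicle (GV) oocytes, metaphase II (MII) oocytes, 4-cell embryos, 4-cell embryos whose zygotes received siRNA for KDM5B and KDM5C, enzymes that demethylate H3K4 (siKDM5BC), 8-cell embryos, morulae and blastocysts. The sources used here do not give breed, embryo number, embryo sex or hours after fertilisation. The labels do not say whether the 2 libraries of a stage came from separate collections, so the spread between them may be technical.

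H3K4me3 is placed by the SET1 and MLL (KMT2) enzymes, is read by proteins with PHD fingers, and is removed by the KDM5 and some other demethylases. In most cells it forms narrow peaks over active or poised promoters, and at developmental regulators it forms wider domains. In mouse oocytes it also covers long stretches away from promoters, which are lost when the embryo begins to transcribe its own genes. In pigs the main wave of embryonic transcription is usually placed near the 4-cell stage, so both stages described here precede it.

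The values were peaks, not reads. Each library had its own list of broad peaks on the pig assembly Sscrofa11.1 (susScr11), and chromosomes 1 to 18 were used. The lists hold no read totals, so sequencing depth is unknown. A background of the peak caller was recovered from each list as a guide to depth. It was 1.41 and 1.32 reads per position in the 2-cell libraries and 2.25 and 1.43 reads per position in the 1-cell libraries (replicates 1 and 2 of each). The 1-cell library of replicate 1 stood apart. Peaks with −log10 q of 2 or more, on the authors' scale, made up 14.6% and 21.8% of the 2-cell lists, against 4.04% of the list of 1-cell replicate 1 and 16.4% of that of 1-cell replicate 2. On chromosome X the 2-cell lists held 2461 and 2188 peaks, against 334 in 1-cell replicate 1 and 2451 in 1-cell replicate 2. X made up 1.56% and 1.45% of the covered length of the 2-cell libraries, against 0.344% in 1-cell replicate 1 and 2.14% in 1-cell replicate 2. The H3K4me3 libraries of other stages ran from 1.69% to 5.01%, so the 2-cell pair also lay below that range. The counts that lead each comparison are therefore given with and without 1-cell replicate 1, and its part in the other values was not tested.

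The 2-cell lists held more but narrower peaks, while the total covered length did not separate the stages. There were 117417 and 109081 peaks in the 2-cell libraries, against 61276 and 90100 in the 1-cell libraries. The median peak was 726 and 683 bp wide in the 2-cell libraries and 866 and 1091 bp wide in the 1-cell libraries, so the stages did not overlap in either measure. With 2 libraries against 2, an exact permutation test cannot give a p below 0.333, and both differences had this smallest value (two-sided). Peaks covered 126 and 106 Mb in the 2-cell libraries, against 68.7 and 139 Mb in the 1-cell libraries. The means were 116 ± 14.3 Mb at the 2-cell stage and 104 ± 49.4 Mb at the 1-cell stage (SD, n = 2 each), a mean log2 difference of 0.25 (exact permutation p = 1, two-sided). Without 1-cell replicate 1 the log2 difference was -0.26, so its direction rested on that library.

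Wide peaks were a small part of the mark and varied more between the 1-cell replicates than between stages. Peaks of 5 kb or wider numbered 1469 and 737 in the 2-cell libraries, against 395 and 2904 in the 1-cell libraries. Their share of covered length was 7.71% in 2-cell replicate 1 and 4.40% in 2-cell replicate 2, against 3.58% and 14.2% in the 1-cell pair. Both 2-cell values lay between the 1-cell values, and the difference of means was -2.84 percentage points (exact permutation p = 1, two-sided). It was -8.16 points without 1-cell replicate 1 and 2.48 points without 1-cell replicate 2. At the narrow end, peaks under 0.5 kb made up 33.9% and 36.0% of the 2-cell lists, against 27.5% and 21.1% of the 1-cell lists, again with no overlap between stages.

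Most of the covered length lay away from genes at both stages. The share more than 5 kb from every end of a protein-coding gene was 62.6% and 61.2% in the 2-cell libraries, against 57.4% and 63.3% in the 1-cell libraries. The means were 61.9% ± 0.946 at the 2-cell stage and 60.4% ± 4.21 at the 1-cell stage (SD, n = 2 each; difference 1.54 points, exact permutation p = 1, two-sided). Without 1-cell replicate 1 the difference was -1.44 points.

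**Figure D1:**
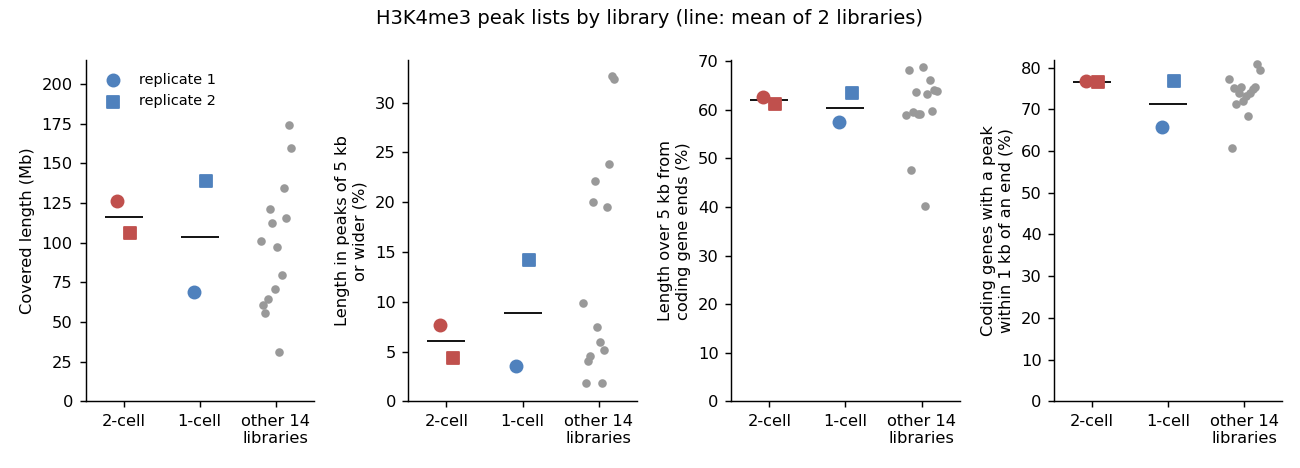
Covered length (Mb), share of that length in peaks of 5 kb or wider (%), share more than 5 kb from coding gene ends (%) and share of coding genes with a peak within 1 kb of an end (%), for the 2-cell libraries, the 1-cell libraries and the other 14 H3K4me3 libraries (grey, siKDM5BC included). Points are libraries and lines are means of 2; the 1-cell replicates lie on either side of the 2-cell pair in covered length, from 68.7 to 139 Mb, and in wide peaks, from 3.58% to 14.2%.

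The libraries did not group by stage. The Jaccard index, which divides the length covered in both of 2 libraries by the length covered in at least 1, was 0.297 between the 2-cell replicates and 0.211 between the 1-cell replicates. Across stages, 1-cell replicate 2 reached 0.315 with 2-cell replicate 1 and 0.293 with 2-cell replicate 2, both above its value with its own replicate. 1-cell replicate 1 reached 0.203 and 0.209 with the 2-cell libraries. Of the length covered in 2-cell replicate 1, 42.2% was also covered in 2-cell replicate 2 and 50.2% in 1-cell replicate 2.

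A region was counted for a stage where at least 200 bp were covered in both of its libraries, and it was called 2-cell-only or 1-cell-only where it met no peak in either library of the other stage. The 2-cell stage had 56777 such regions and 10369 of them, 18.3%, were 2-cell-only. The 1-cell stage had 35197 regions and 3708 of them, 10.5%, were 1-cell-only. The 2-cell-only regions held 5.17 Mb, or 9.98% of the length of all 2-cell regions, and the 1-cell-only regions 1.93 Mb, or 5.40% of that of all 1-cell regions. A larger set, 24131 regions or 42.5% of the 2-cell regions, met a peak in both 1-cell libraries, and these carried 30.4 Mb. A further 18593 2-cell regions were missing only from 1-cell replicate 1, against 3684 missing only from 1-cell replicate 2.

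These counts depended on each library. The 2-cell-only count was 14053 without 1-cell replicate 1, 28962 without 1-cell replicate 2, 34998 without 2-cell replicate 1 and 40339 without 2-cell replicate 2. The 1-cell-only count was 8382 without 2-cell replicate 1, 7140 without 2-cell replicate 2, 23928 without 1-cell replicate 1 and 16308 without 1-cell replicate 2. A call that asks fewer libraries to agree can only grow. Without 1-cell replicate 1 the 1-cell-only count exceeded the 2-cell-only count, but it then asked for 1 library and the 2-cell-only count for 2. No test per region was run.

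The stage-only regions were short and mostly far from gene ends, in both directions. Their median length was 413 bp for the 2-cell-only set and 418 bp for the 1-cell-only set, against 1009 bp for the 2-cell regions shared with both 1-cell lists. A short stretch meets a call of no overlap more easily, and how far this sets the lengths was not tested. The peaks that held the 2-cell-only regions had median widths of 903 and 771 bp, against 1837 and 1603 bp for the shared regions. For 1-cell-only regions they were 814.5 and 1209.5 bp, against 1374 and 2394 bp for the shared 1-cell regions. Only 7.56% of 2-cell-only regions and 6.80% of 1-cell-only regions lay within 1 kb of a coding gene end, against 39.9% of the shared 2-cell regions. Beyond 50 kb lay 24.7% of the 2-cell-only, 27.9% of the 1-cell-only and 12.4% of the shared regions. The median distance to the nearest coding gene end was 16.5 kb for 2-cell-only, 17.2 kb for 1-cell-only and 2.97 kb for shared regions. Gene bodies held 49.4% of the 2-cell-only and 46.4% of the 1-cell-only regions.

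The fold enrichment here is the authors' value for the peak that holds each region. In the 2-cell lists the median was 3.18 and 3.27 for 2-cell-only regions (replicates 1 and 2), against 3.39 and 3.51 for the shared regions. In the 1-cell lists it was 2.92 and 3.13 for 1-cell-only regions, against 3.06 and 3.37 for the shared ones. Within each list, the stage-only regions had a lower median fold than the shared regions. The smallest fold listed was 2.90 (2-cell replicate 1), 3.02 (2-cell replicate 2), 2.77 (1-cell replicate 1) or 2.88 (1-cell replicate 2). Of the 2-cell-only regions, 11.1% (replicate 1) and 15.4% (replicate 2) lay in peaks with −log10 q of 2 or more. For shared 2-cell regions these shares were 31.1% and 43.5%. Such peaks held 1.94% (replicate 1) and 10.3% (replicate 2) of 1-cell-only regions, against 6.99% and 34.8% of shared ones. Ranked among all peaks of the same list, the median of the 2-cell-only regions was at percentile 50.03 in replicate 1 and 45.9 in replicate 2, against 74.7 and 73.8 for shared regions. The median of the 1-cell-only regions was at percentile 41.7 in replicate 1 and 45.5 in replicate 2, against 65.3 and 74.4 for shared regions. Peaks of 5 kb or wider held 2.44% and 0.935% of the 2-cell-only regions, against 7.48% and 3.96% of the shared 2-cell regions. Such peaks were themselves few, 1469 of 117417 and 737 of 109081 in the 2-cell lists. Every chromosome from 1 to 18 had both kinds, with the 2-cell-only share of 2-cell regions running from 16.4% on chromosome 2 to 22.9% on chromosome 16 and the 1-cell-only share of 1-cell regions from 8.04% on chromosome 12 to 12.7% on chromosome 14.

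**Figure D2:**
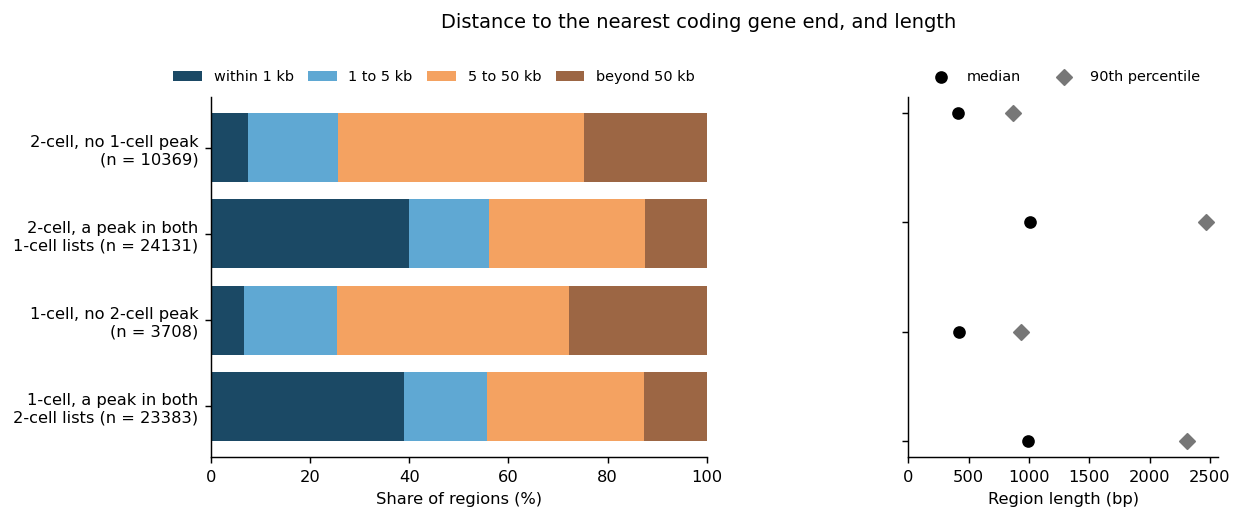
Share of regions (%) by distance to the nearest coding gene end, and region length (bp; median and 90th percentile), for regions covered in both libraries of a stage and split by the other stage's lists. Stage-only regions are under 8% within 1 kb of a gene end and have medians of 413 and 418 bp, while shared regions are near 40% within 1 kb with medians of 1009 and 995 bp.

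The 5 longest 2-cell-only regions were taken by length alone, so their values are a description. The longest covered 3628 bp of chromosome 14, from 140964146 to 140967773, inside CFAP46, a gene for a ciliary protein, 35 kb from its nearer end. Its peaks had a fold of 3.28 and 3.55 in the 2-cell libraries. The siKDM5BC 4-cell libraries covered all 3628 bp in both replicates, MII oocytes 1842 and 3628 bp, and untreated 4-cell embryos 2358 and 793 bp. The second, 3131 bp on chromosome 18 from 6891912 to 6895042, spanned an end of FAM131B, and 2-cell folds were 3.48 and 3.44. It was covered in part at every later H3K4me3 stage, from 809 to 1727 bp in untreated 4-cell, 8-cell, morula and blastocyst libraries.

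The remaining long 2-cell-only regions differed in their cover at other stages. A stretch of 3028 bp on chromosome 16, from 51467897 to 51470924, lay 6.80 kb from DUSP1, the gene of a MAP kinase phosphatase, and was at 0 bp in all 8-cell, morula and blastocyst libraries. A stretch of 2651 bp on chromosome 5, from 5689519 to 5692169, lay inside SCUBE1 and 170 bp from its end. It was fully covered in both siKDM5BC libraries and in MII replicate 2, and at 0 bp in morulae and blastocysts. The fourth, 2922 bp on chromosome 17 from 63449743 to 63452664, had the highest 2-cell folds of this set, 5.60 and 6.12. It lay 377 kb from the nearest coding gene, PCMTD2. H3K27me3 covered 2048 and 2922 bp of it in MII oocytes, 0 bp in 2-cell embryos and part of it in 4-cell, 8-cell and morula libraries. The 2-cell H3K27me3 lists covered only 1.98 and 1.25 Mb in all. In both blastocyst libraries H3K27me3 covered all of it. H3K4me3 covered 2029 and 2686 bp of it in 8-cell embryos, and 1355 and 1716 bp in blastocysts.

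The 5 longest 1-cell-only regions were mostly uncovered at other stages. The longest, 2720 bp on chromosome 12 from 42862669 to 42865388, spanned an end of TEFM, the mitochondrial transcription elongation factor, with 1-cell folds of 2.96 and 3.35. It was covered over 1568 and 1632 bp in 8-cell embryos and over its whole length in both morula and both blastocyst libraries. The next was 2480 bp inside TACR1, the substance P receptor gene, on chromosome 3 from 67866858 to 67869337. No untreated H3K4me3 library other than the 1-cell pair covered it. The same held for 2212 bp inside LPIN2 on chromosome 6, from 103707466 to 103709677. Regions of 2302 bp near TMC3 (chromosome 7, 50200101 to 50202402) and of 2237 bp 61.9 kb from DUSP5 (chromosome 14, 120842199 to 120844435) were covered over at most 571 and 633 bp in any untreated H3K4me3 library outside the 1-cell pair.

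Few of the stage-only regions were found at other stages. A region counted as held where at least 50% of its length was covered in both libraries of a group. Untreated 4-cell embryos held 3.11% of 2-cell-only regions, 2.24% of 1-cell-only regions and 33.6% of the shared 2-cell regions. In blastocysts the shares were 10.8%, 11.2% and 49.7% in the same order of sets. GV oocytes held 10.1% of 2-cell-only and 5.34% of 1-cell-only regions, and MII oocytes held 8.83% and 3.59%.

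The siKDM5BC 4-cell embryos held far more of the 2-cell-only regions. They covered 40.3% of the 2-cell-only, 17.7% of the 1-cell-only and 79.5% of the shared 2-cell regions. Their lists covered 174 and 159 Mb, against 55.4 and 31.0 Mb in the untreated 4-cell lists, and how far this larger cover sets the shares was not tested. H3K27me3, the Polycomb mark, was listed on 13.2% of 2-cell-only regions in MII oocytes, against 3.07% of 1-cell-only and 8.79% of shared regions. In blastocysts H3K27me3 was listed on 6.09% of 2-cell-only, 2.70% of 1-cell-only and 8.32% of shared regions. In H3K27me3 lists of 2-cell, 4-cell, 8-cell and morula stages no set reached 1%. These lists were small, at 1.98 and 1.25 Mb (2-cell), 17.4 and 27.2 Mb (4-cell), 5.50 and 33.0 Mb (8-cell) and 10.3 and 12.9 Mb (morula). The MII lists covered 69.0 and 59.7 Mb. How far the smaller cover sets these shares was not tested.

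**Figure D3:**
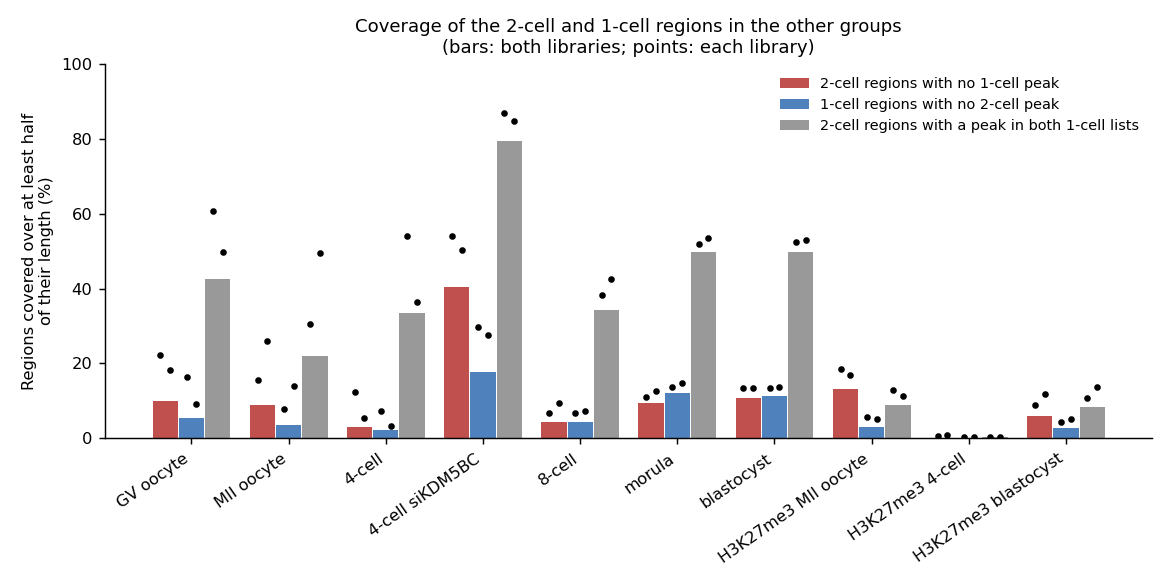
Share of regions (%) with at least 50% of their length covered in both libraries (bars) or in each library (points) of the other groups, in stage order, then H3K27me3 groups. Shared regions (grey) exceed both stage-only sets in every H3K4me3 group, with 79.5% in siKDM5BC embryos, where 2-cell-only regions (red) reach 40.3% and 1-cell-only regions (blue) 17.7%.

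At coding genes the stages shared most of the mark. A gene counted as marked where a peak lay within 1 kb of its start or its end coordinate, since the annotation gave no strand. Of 18722 genes, 14354 and 14320 were marked in the 2-cell libraries, against 12295 and 14354 in the 1-cell libraries. All 4 libraries marked 11140 genes, 59.5% of those measured and 82.5% of the 13499 marked in both 2-cell libraries. No library marked 3102 genes. Missing only from 1-cell replicate 1 were 1860 genes, 9.93% of all, which is more than every stage-only call together.

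Genes marked in both 2-cell and neither 1-cell library numbered 258, or 1.38% of all genes and 6.70% of the 3849 genes with no mark in either 1-cell library. Genes marked in both 1-cell and neither 2-cell library numbered 89, or 0.475% of all genes and 0.756% of the 11776 marked in both 1-cell libraries. The 2-cell-only count was 499 without 1-cell replicate 1, 2118 without 1-cell replicate 2, 490 without 2-cell replicate 1 and 515 without 2-cell replicate 2. The 1-cell-only count was 357 without 2-cell replicate 1, 368 without 2-cell replicate 2, 323 without 1-cell replicate 1 and 211 without 1-cell replicate 2. No test per gene was run.

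A call at 1 kb seldom meant an unmarked neighbourhood. Of the 258 2-cell-only genes, 56 had no 1-cell peak within 5 kb of an end. Their median covered length within 5 kb was 1856.5 and 1893.5 bp at the 2-cell stage, against 258 and 1154.5 bp at the 1-cell stage. Of the 89 1-cell-only genes, 25 had no 2-cell peak within 5 kb, and their median covered length was 403 bp in 2-cell replicate 2 and little higher in 2-cell replicate 1, against 1408 and 1629 bp at the 1-cell stage. Uncharacterised LOC genes made up 55 of the 2-cell-only and 8 of the 1-cell-only genes.

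Earlier and later stages marked part of these genes. GV oocytes marked 38.4% of the 2-cell-only and 39.3% of the 1-cell-only genes in both libraries, and MII oocytes 31.4% and 32.6%. Among genes unmarked in the 1-cell libraries and not 2-cell-only, GV oocytes marked 5.90% and MII oocytes 5.21%. Among genes marked in both 1-cell libraries and not 1-cell-only, they marked 92.0% and 74.9%. Untreated 4-cell embryos marked 32.9% of the 2-cell-only genes in both libraries, against 3.37% of the genes unmarked in the 1-cell libraries and not 2-cell-only. They marked 43.8% of the 1-cell-only genes, against 90.6% of the genes marked in both 1-cell libraries and not 1-cell-only. Blastocysts marked 57.0% of the 2-cell-only genes, against 15.2% of the genes unmarked in the 1-cell libraries and not 2-cell-only. They marked 64.0% of the 1-cell-only genes, against 94.5% of the genes marked in both 1-cell libraries and not 1-cell-only. In siKDM5BC embryos 67.1% of the 2-cell-only genes were marked in both libraries, against 8.77% of the same unmarked set, and 64.0% of the 1-cell-only genes, against 98.9% of the same marked set. Of the 3591 genes of the unmarked set, 3102 had no mark in any of the 4 libraries. LOC genes made up 47.1% of that set, against 21.3% of the 2-cell-only genes. How far its make-up sets these shares was not tested.

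The 8 named 2-cell-only genes had the largest difference in covered length within 5 kb of either end, so their values describe the choice. KCNA10, a voltage-gated potassium channel (chromosome 4, 109646024 to 109647699), had 6045 and 6826 bp covered at the 2-cell stage, against 304 and 2552 bp at the 1-cell stage. PLEKHG1 (chromosome 1, 15341634 to 15588224), had 5578 and 3965 bp, against 283 and 1172 bp at the 1-cell stage. UBE2QL1, an E2 ubiquitin-conjugating protein (chromosome 16, 75428272 to 75474506), had 5397 and 4191 bp, against 1032 and 739 bp at the 1-cell stage. In these genes both 1-cell libraries lay well below both 2-cell libraries.

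TH, tyrosine hydroxylase, the rate-limiting enzyme of catecholamine synthesis (chromosome 2, 1499628 to 1506180), had 7029 and 4704 bp at the 2-cell stage, against 608 and 3292 bp at the 1-cell stage. It was wider still in MII oocytes, at 7651 and 11155 bp, and was listed at 0 bp in all morula and blastocyst libraries. MII oocytes also carried H3K27me3 over 15384 and 13739 bp there. MFAP4, a protein of extracellular microfibrils (chromosome 12, 60141488 to 60144214), had 4328 and 5691 bp at the 2-cell stage, against 546 and 2228 bp at the 1-cell stage. WRAP73, a centrosomal WD-repeat protein (chromosome 6, 65155201 to 65167091), had 9107 and 5318 bp at the 2-cell stage, against 2036 and 2884 bp at the 1-cell stage.

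In the remaining 2 genes of this set 1-cell replicate 2 was close to both 2-cell libraries (LMO1) or to 2-cell replicate 2 only (FAM131B). LMO1, a LIM-only transcriptional cofactor (chromosome 9, 1045138 to 1082974), had 9883 and 9752 bp at the 2-cell stage, against 541 and 9498 bp at the 1-cell stage. FAM131B (chromosome 18, 6893323 to 6903022) had 7990 and 3343 bp at the 2-cell stage, against 0 and 3312 bp at the 1-cell stage. Both are 2-cell-only by the 1 kb windows, where each 1-cell library had no peak. Over 5 kb the difference of means at LMO1 was 4798 bp, and 319.5 bp without 1-cell replicate 1. At FAM131B it was 4010.5 bp, and 2354.5 bp without that library.

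The 8 named 1-cell-only genes were chosen likewise. CARF, a calcium-responsive transcription factor (chromosome 15, 106410245 to 106482502), had no 2-cell peak within 5 kb, against 2149 and 4471 bp in the 1-cell libraries. It was marked at every later untreated stage, from 1793 to 5246 bp. NDUFAF6, an assembly factor of respiratory complex I (chromosome 4, 41619480 to 41655682), had 299 and 0 bp at the 2-cell stage, against 3712 and 1116 bp at the 1-cell stage. TCAIM, a mitochondrial protein known as an inhibitor of T cell activation (chromosome 13, 27648070 to 27703489), had 565 and 403 bp, against 2250 and 3913 bp at the 1-cell stage. OXSM, the mitochondrial 3-oxoacyl-ACP synthase (chromosome 13, 12685893 to 12692148), had 2327 and 1693 bp, against 5332 and 3424 bp at the 1-cell stage.

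The other four were also lower in both 2-cell libraries or nearly so. AOX4, an aldehyde oxidase (chromosome 15, 104329873 to 104393436), had 1887 and 487 bp at the 2-cell stage, against 2564 and 3719 bp at the 1-cell stage. PTPN22, a lymphoid tyrosine phosphatase (chromosome 4, 106692102 to 106758101), had 696 and 1564 bp, against 4136 and 3571 bp at the 1-cell stage. GHRH, growth hormone-releasing hormone (chromosome 17, 40386725 to 40398312), had 1206 and 1181 bp, against 1714 and 5189 bp at the 1-cell stage. TIFAB (chromosome 2, 137675245 to 137678880) had 4935 and 1212 bp, against 3641 and 6688 bp at the 1-cell stage, so its groups overlapped over 5 kb. For PTPN22, TCAIM, OXSM and GHRH the difference turned positive when the lists were limited to their stronger peaks.

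**Figure D4:**
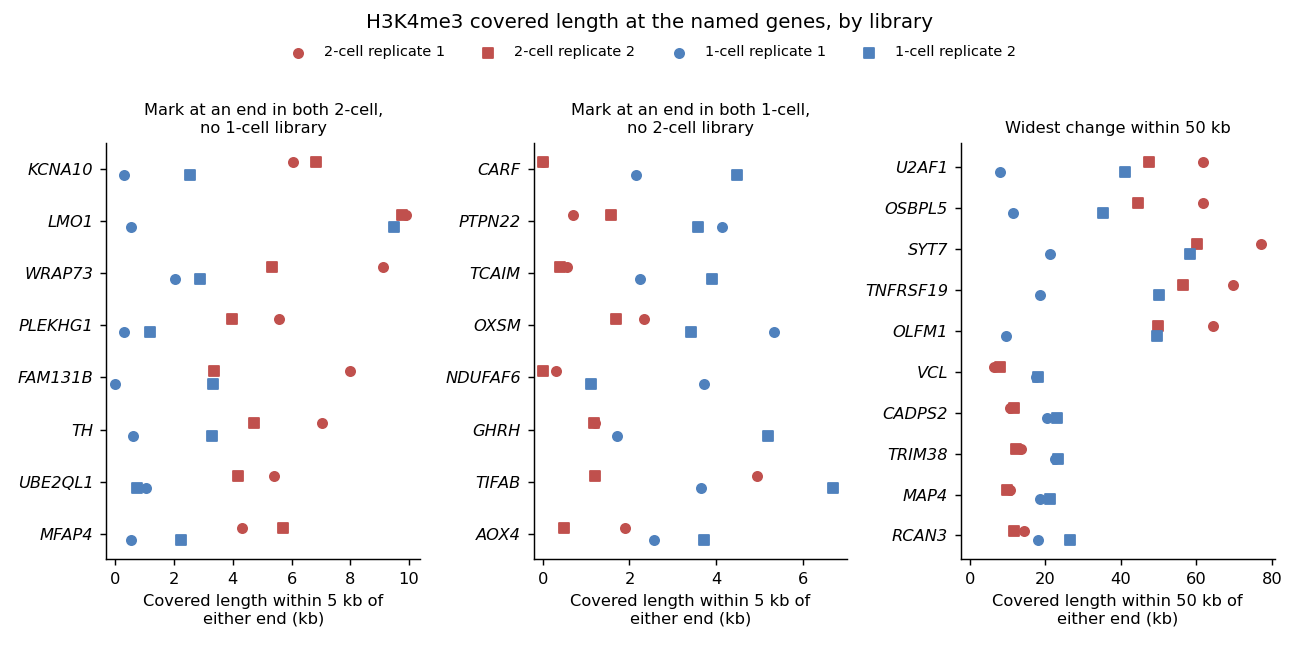
Covered length (kb) within 5 kb of either gene end for the 8 named 2-cell-only and the 8 named 1-cell-only genes, and within 50 kb for the 5 genes with the largest increase and the 5 with the largest decrease. Points are libraries (red 2-cell, blue 1-cell). In the upper 5 genes at right 1-cell replicate 1 lies far below the other libraries. In the lower 5 both 1-cell libraries lie above both 2-cell libraries, as the choice of these genes required.

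Over 50 kb on either side of gene ends, both 2-cell libraries exceeded both 1-cell libraries at 2096 genes (11.2%) and lay below both at 1918 genes (10.2%). The counts were 2736 (14.6%) and 9406 (50.2%) without 1-cell replicate 1. The 5 largest increases were at U2AF1, a subunit of the splicing factor that binds the 3' splice site, OSBPL5, an oxysterol-binding protein, SYT7, a synaptotagmin, TNFRSF19, a receptor of the TNF family, and OLFM1, an olfactomedin. U2AF1 (chromosome 13, 206244772 to 206257697) had 61810 and 47339 bp at the 2-cell stage, against 8016 and 40994 bp at the 1-cell stage. OLFM1 (chromosome 1, 274236241 to 274261322) had 64322 and 49888 bp, against 9688 and 49502 bp at the 1-cell stage. In all 5 genes 1-cell replicate 2 lay nearer to 2-cell replicate 2 than to 1-cell replicate 1, which was far below the other libraries. The difference of means at U2AF1 was 30069.5 bp, and 13580.5 bp without 1-cell replicate 1. At OSBPL5 it was 29951.5 bp, and 18094 bp without that library. At SYT7 it was 28763 bp, and 10228 bp without it, and at TNFRSF19 28751.5 bp, and 12916 bp without it. At OLFM1 it was 27510 bp, and 7603 bp without it, so in all 5 genes the size moved by more than 1.5 times. Their groups did not overlap by choice, so leaving out a library could not turn the direction. Limited to −log10 q of 2 or more, the differences were 9586.5 bp at U2AF1, 14883.5 bp at OSBPL5 and 7548 bp at SYT7. At the same limit they were 10252 bp at TNFRSF19 and 641 bp at OLFM1.

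In the 5 largest decreases over 50 kb the size of the difference depended less on 1-cell replicate 1. Without it the differences were -11083 bp at VCL, -11918.5 bp at CADPS2, -10427.5 bp at TRIM38, -10960.5 bp at MAP4 and -13372 bp at RCAN3, against -10697, -10566, -10010, -9633 and -9220.5 bp with all libraries. They depended strongly on peak strength. Limited to −log10 q of 2 or more, they were -580.5 bp at VCL, -2064 bp at CADPS2 and -1107 bp at TRIM38. At the same limit they were -3814.5 bp at MAP4 and -479 bp at RCAN3. With peaks under 3 kb apart joined, they ran from -897 bp at TRIM38 to -16363.5 bp at VCL. VCL, vinculin, which links cell contacts to actin (chromosome 14, 76700143 to 76811875), had 6282 and 7854 bp at the 2-cell stage, against 17379 and 18151 bp at the 1-cell stage. CADPS2, which acts in release of dense-core vesicles (chromosome 18, 24372547 to 24867287), had 10733 and 11664 bp, against 20412 and 23117 bp at the 1-cell stage. Within 5 kb of its ends the values were 2420 and 2964 bp at the 2-cell stage, against 8105 and 7502 bp at the 1-cell stage. MAP4, a microtubule-associated protein (chromosome 13, 30633049 to 30805183), had 10700 and 9907 bp over 50 kb, against 18609 and 21264 bp at the 1-cell stage.

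RCAN3, a regulator of calcineurin (chromosome 6, 82186306 to 82226140), had 14364 and 11756 bp over 50 kb at the 2-cell stage, against 18129 and 26432 bp at the 1-cell stage. TRIM38, a ubiquitin ligase of antiviral signalling (chromosome 7, 20682536 to 20694340), had 13580 and 12097 bp, against 22431 and 23266 bp at the 1-cell stage. TRIM38 had no peak within 5 kb of an end in any of the 4 libraries, so its difference lay between 5 and 50 kb away. VCL, CADPS2, MAP4 and RCAN3 were themselves marked at an end in all 4 libraries.

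The gene lists showed few stage-only marks. The 24 lists with matched genes held 1149 distinct genes, of which 6 (0.522%) were 2-cell-only, beside 1.38% of all genes. They were ZFP57, PHF19, NPR2, CD44 and a pair of zinc finger genes, ZNF641 and ZNF660. Only a gene unmarked in both 1-cell libraries can be 2-cell-only, and 6.70% of all such genes were. How many distinct list genes were open to the call was not counted, so the lower share in the lists may reflect their wider marking. None of the 1149 was 1-cell-only, beside 0.475% of all genes. Leaving out 1-cell replicate 1 gave 20 2-cell-only list genes (1.74%), beside 2.67% of all genes, and 6 1-cell-only list genes (0.522%), beside 1.73%. ZFP57, the KRAB zinc finger protein that guards imprints (chromosome 7, 22607420 to 22612064), had 361 and 365 bp covered within 1 kb at the 2-cell stage and none at the 1-cell stage. Within 5 kb it had 1728 and 942 bp at the 2-cell stage, against 1564 and 1822 bp at the 1-cell stage, so its groups overlapped at that distance. PHF19, a Polycomb repressive complex 2 partner (chromosome 1, 260899462 to 260919776), had 2603 and 651 bp within 5 kb, against 0 and 1317 bp at the 1-cell stage, and its groups overlapped.

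Housekeeping lists were marked in all 4 libraries at 76.6% to 100% of their genes, beside 59.5% of all coding genes. All 36 respiratory complex I genes were so marked, as were 73 of 79 ribosomal protein genes, 36 of 40 splicing factor genes and 63 of 74 mitochondrial ribosomal protein genes. The lowest were the proteasome and the DNA replication and cell cycle lists, at 36 of 47 each, and RNA polymerase II and general transcription factors, at 60 of 77 (77.9%). Among all coding genes, covered length within 5 kb was higher in both 2-cell libraries than in both 1-cell libraries at 2872 (15.3%) and lower at 2106 (11.2%). Ribosomal protein genes were higher at 20 of 79 (25.3%) and lower at 11 (13.9%). RPL15, a large-subunit protein, had 4964 and 3266 bp at the 2-cell stage, against 1303 and 1458 bp at the 1-cell stage. RPL6, another large-subunit protein, ran the other way, with 4204 and 3144 bp at the 2-cell stage, against 8292 and 7830 bp at the 1-cell stage.

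Several growth lists had more lower than higher genes. Proteasome genes were higher at 3 of 47 (6.38%) and lower at 11 (23.4%). DNA replication and cell cycle genes were higher at 4 of 47 (8.51%) and lower at 12 (25.5%), chaperones at 1 of 28 (3.57%) and 6 (21.4%), and splicing factors at 7 of 40 (17.5%) and 11 (27.5%). Glycolysis genes were higher at 6 of 22 (27.3%) and lower at 3 (13.6%). Zinc finger genes were higher at 57 of 270 (21.1%) and lower at 36 (13.3%). Without 1-cell replicate 1 the shares of all genes were 20.2% higher and 40.2% lower, and the counts were 24 and 30 for ribosomal protein, 7 and 27 for proteasome, 11 and 22 for DNA replication, 2 and 17 for chaperone, 7 and 20 for splicing factor, 6 and 7 for glycolysis and 75 and 115 for zinc finger genes.

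Developmental transcription factors and HOX genes had the largest median covered lengths of the 24 lists, in each of the 4 libraries. All 70 genes of the first list were marked in both 2-cell libraries, and 63 of them also in both 1-cell libraries; the other 7 were missing only from 1-cell replicate 1. Their median covered length within 5 kb was 7492.5 and 7416 bp at the 2-cell stage, against 5103 and 8528 bp at the 1-cell stage. For all coding genes it was 2569 and 2339 bp at the 2-cell stage, against 1684.5 and 2970.5 bp at the 1-cell stage. HOX genes had medians of 8623 and 7194.5 bp, against 4803.5 and 7959 bp at the 1-cell stage, and 31 of 36 were marked in all 4 libraries. The order of libraries was the same in these lists as over all genes, with 1-cell replicate 1 lowest and, except among HOX genes, 1-cell replicate 2 highest.

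Peaks of 5 kb or wider over a gene end were also frequent in these lists. They held an end of 30.0% and 24.3% of the developmental transcription factors at the 2-cell stage, against 12.9% and 57.1% at the 1-cell stage. Over all coding genes the shares were 4.82% and 2.58% at the 2-cell stage, against 1.53% and 7.91% at the 1-cell stage. HOX genes reached 30.6% and 22.2%, against 8.33% and 38.9% at the 1-cell stage. In both lists both 2-cell libraries lay between the 1-cell libraries. Trophectoderm genes had 12.5% and 16.7%, against 4.17% and 37.5% at the 1-cell stage, close to HOX genes in 1-cell replicate 2. Hypoblast genes had 10.5% in each 2-cell library, against 10.5% and 31.6% at the 1-cell stage.

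**Figure D5:**
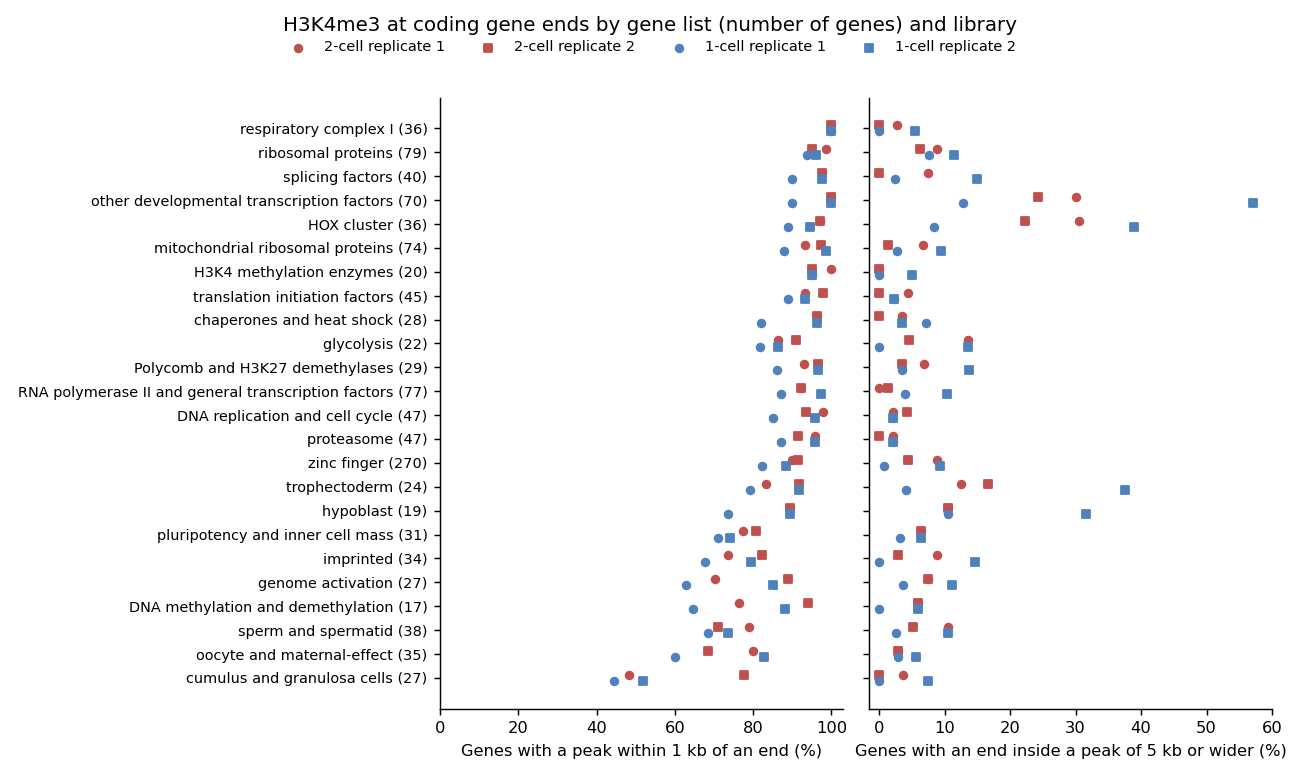
For each gene list (number of genes in brackets), the share of genes with a peak within 1 kb of an end (left, %) and with an end inside a peak of 5 kb or wider (right, %), by library. On the left most lists lie above 80% in every library apart from 1-cell replicate 1, and cumulus and granulosa genes are low in each library but 2-cell replicate 2, where 21 of 27 are marked; on the right developmental transcription factors reach 57.1% in 1-cell replicate 2, with HOX at 38.9%, trophectoderm at 37.5% and hypoblast genes at 31.6%.

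Genes with an end in a wide peak in both libraries of a single stage were few and balanced. There were 48 such genes at the 2-cell stage (0.256% of all) and 47 at the 1-cell stage (0.251%), while 23 had one in all 4 libraries. Without 1-cell replicate 1 the counts were 57 and 960. The second then rested on 1-cell replicate 2 alone, the library with the most wide peaks (2904). The genes named next were chosen after their values were seen. At the 2-cell stage only, wide peaks lay over IFNGR2, a chain of the interferon gamma receptor (9726 and 12628 bp wide), over BCL3, an inhibitor of kappa B family protein (10055 and 8740 bp), and over the homeobox genes IRX6 (8926 and 6962 bp) and DLX3 (7738 and 5478 bp).

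At the 1-cell stage only, wide peaks lay over HES3, a transcriptional repressor of the Notch pathway family (6629 and 13784 bp), RPS24, a ribosomal protein (11610 and 6060 bp), and SOX12, a SOX family transcription factor (8808 and 6275 bp). A wide peak in 1 library and several narrower ones in another can cover similar lengths. RPS24 had 6209 and 6451 bp covered within 5 kb at the 2-cell stage, against 10930 and 7604 bp at the 1-cell stage. In all 4 libraries wide peaks lay over HOXA7, at 7748 and 6253 bp at the 2-cell stage, against 10910 and 7976 bp at the 1-cell stage, and over FOXA2 (6060 and 5581 bp, against 8437 and 5567 bp), EOMES, ZIC4 and WNT1.

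The longest peak of 3 of the 4 libraries lay on chromosome 10 at SUSD4. It spanned 43135 bp in 2-cell replicate 1 (19414757 to 19457891), against 43351 bp (19413868 to 19457218) and 42796 bp (19414365 to 19457160) in the 1-cell libraries. In 2-cell replicate 2 the longest peak was another on the same chromosome, of 31889 bp (24930343 to 24962231) at CYB5R1, and the peak at SUSD4 spanned 26340 bp. Both places were covered in every library of the study, of either mark. The stretch shared by the peaks at SUSD4 was covered over at least 78.8% of its length in each of the 18 H3K4me3 libraries and over at least 68.2% in each of the 12 H3K27me3 libraries. That shared by the peaks at CYB5R1 was covered over at least 97.4% and 71.4% in the same libraries. In H3K27me3 lists of 2-cell embryos the peak at SUSD4 spanned 42406 and 42389 bp, so neither wide peak was particular to H3K4me3. The peak at CYB5R1 had the authors' fold of 14.1 in that library, and 16.3 and 12.5 in the 1-cell libraries.

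Regulators of the early embryo and of the mark itself were marked at both stages in most cases. Of 20 chosen symbols 19 lay on chromosomes 1 to 18, at 20 loci, since NANOG is annotated at 2 places, and 15 loci were marked in all 4 libraries, beside 59.5% of all coding genes. POU5F1, the pluripotency factor also called OCT4, had 5548 and 4561 bp covered within 5 kb at the 2-cell stage, against 3446 and 5173 bp at the 1-cell stage. SOX2, its partner, had 3677 and 2569 bp, against 944 and 1093 bp at the 1-cell stage, with no overlap. NANOG on chromosome 5 had 2720 and 1889 bp, against 784 and 2012 bp at the 1-cell stage, and the copy on chromosome 1 had none in any library; reads of near-identical copies may be split between them.

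CDX2, GATA3, GATA6 and KLF17 had more covered length within 5 kb than the median coding gene in each of the 4 libraries. CDX2, the trophectoderm homeobox factor, had 12399 and 10092 bp at the 2-cell stage, against 7385 and 10370 bp at the 1-cell stage. GATA3 had 10017 and 6569 bp, against 3421 and 10384 bp at the 1-cell stage. GATA6, a factor of the hypoblast, had 8499 and 5380 bp, against 4652 and 12652 bp at the 1-cell stage. KLF17 had 5655 and 6700 bp, against 3730 and 5507 bp at the 1-cell stage, with no overlap. ZSCAN4, which marks genome activation in mouse and human embryos, had 2449 and 2918 bp, against 2362 and 4977 bp at the 1-cell stage. In 2-cell replicate 1 ZSCAN4 lay below the median coding gene and had no peak within 1 kb of an end.

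Among the H3K4 enzymes the stages mostly overlapped. KDM5B, an H3K4 demethylase, had 8454 and 6342 bp at the 2-cell stage, against 4250 and 8253 bp at the 1-cell stage. KDM1A, a demethylase of lower H3K4 states, was the single regulator lower in both 2-cell libraries, at 4162 and 2834 bp, against 4555 and 5277 bp at the 1-cell stage. SETD1A, a catalytic subunit of a SET1 complex, had 6830 and 3514 bp, against 2736 and 3391 bp at the 1-cell stage, and KDM5A had 4320 and 3837 bp, against 3678 and 2016 bp. In all, 4 loci were higher and 1 lower in both 2-cell libraries within 5 kb, beside 15.3% and 11.2% of all genes. KMT2A, KMT2B, KMT2D and SETD1B, which add the mark, were marked in all 4 libraries.

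Peak lists show marks on genes, not which cells gave them, so the labels could be checked against markers only loosely. Of 27 genes of cumulus and granulosa cells, which can stay attached to the zona, 13 and 21 were marked in the 2-cell libraries, against 12 and 14 in the 1-cell libraries. Of all coding genes, 76.7% and 76.5% were marked in the 2-cell libraries, against 65.7% and 76.7% in the 1-cell libraries. All 4 libraries marked 8 of the 27 (29.6%) and none marked 5 (18.5%), beside 59.5% and 16.6% of all coding genes. Among these 5, FSHR, CYP19A1, CYP11A1 and VCAN, named after their values were seen, had no peak within 5 kb in any of the 4 libraries. They do not stand for the list, of which 21 of 27 genes were marked in 2-cell replicate 2. The receptor NPR2, with 1594 and 3222 bp within 5 kb at the 2-cell stage, against 1537 and 1159 bp at the 1-cell stage, and the hyaluronan receptor CD44, with 1204 and 1279 bp, against 1305 and 0 bp, were the 2-cell-only genes of this list. Among all coding genes 1.38% were 2-cell-only, or 6.70% of those unmarked in both 1-cell libraries, of which this list held 10. Sperm and spermatid genes were marked at 30 and 27 of 38 in the 2-cell libraries, against 26 and 28 in the 1-cell libraries, near the shares of all genes. All 4 libraries marked 21 of the 38 (55.3%) and none marked 8 (21.1%), among them TNP1 and PGK2, named after their values were seen. Oocyte and maternal-effect genes were marked at 28 and 24 of 35, against 21 and 29 in the 1-cell libraries, and 17 were marked in all 4.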

How the data were processed

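H3K4me3 peak lists of 2-cell and 1-cell pig embryos (2 libraries each) were analysed, with the 26 other lists as context. Per the submitters' processing notes, reads were processed with Bowtie2 2.4.1 and MACS2 on susScr11. The sources used here do not give the MACS2 version, input control, threshold or filters. Each deposited list was called per library. It holds peak positions in bp, a fold (ratio of peak signal to the background that MACS2 assumed), and the authors' −log10 p and −log10 q, which were used only to describe or filter peaks. A fold below 3.5 or a −log10 q below 2 was dropped in alternatives.

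Covered length, widths, distances and overlaps were computed with Python 3.11.15, numpy 2.4.6, pandas 2.3.3 and scipy 1.17.1. Gene positions of 18722 coding genes came from the RefSeq table of the same assembly, which gives no strand, so both ends counted alike. Stage differences in covered length (log2), wide share and distal share used exact permutation tests, two-sided, which 2 libraries against 2 cannot carry below 0.333. Regions and genes were counted without tests. The code of the region and gene calls was checked on simulated lists, all made from a single real list with small shifts and planted peaks. Such lists agree far more closely than the real replicates (Jaccard index 0.297 and 0.211). The check therefore does not show how the calls behave on the real replicates.

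The background of the caller was solved from the pair of fold and −log10 p seen most often, assuming a Poisson p and a fold with 1 read added above and below. Of 553 symbols in lists written gene by gene, 508 matched, and the other lists were matched by symbol pattern. Olfactory receptors matched no symbol. Members, lists and rules were chosen with earlier results of these data known.

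Named genes were the 8 2-cell-only and 8 1-cell-only genes with the largest difference within 5 kb (no LOC symbols, ends over 10 kb apart), the 5 largest increases and decreases within 50 kb among genes whose groups did not overlap (over 100 kb apart), called list genes (zinc fingers apart) and 20 regulators. RPL15, RPL6, the zinc finger genes, marker genes and genes with wide peaks were named after their values were seen. No genome came with these data, so no sequence is shown. The pairing of replicate numbers was checked over 91862 windows of 10 kb, where same-numbered libraries did not deviate together (correlation -0.18). Alternatives are given in the closing section.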

Additional observations from a re-analysis of the deposited data

How the results depend on the processing

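Limiting the lists to −log10 q of 2 or more gave 2860 2-cell-only and 262 1-cell-only regions and 1426 and 151 genes. A fold of 3.5 or more gave 3935 and 195 regions and 1861 2-cell-only genes. Joining peaks under 3 kb apart gave 4974 and 2249 regions and turned the wide-share difference to 13.96 points. Taking the highest-fold peaks of each list down to 68.7 Mb gave 4828 2-cell-only regions, 391 and 359 genes, and a distal difference of -0.847 points. A 1000 bp overlap gave 651 and 288 regions, less than 50% cover in the other stage 16852 and 8114 regions, and 50% of a window covered 547 and 511 genes. Of the 258 and 89 genes called, 15 and 1 were still called at the q limit, 20 and 1 at the fold limit, 249 and 86 with joined peaks, 91 and 39 at equal covered length, and 18 and 16 at 50% of a window. The cause was not tested.

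Leaving out 1 library gave ranges of -0.26 to 0.75 for the log2 covered length, -8.16 to 2.48 points for the wide share, -1.44 to 4.51 points for the distal share, 14053 to 40339 and 7140 to 23928 for regions, and 490 to 2118 and 211 to 368 for genes. Without 1-cell replicate 1 (chosen after seeing the data), 3784 genes were wider and 7522 narrower within 5 kb, 2736 wider and 9406 narrower within 50 kb, 20 list genes were 2-cell-only, and 57 2-cell-only and 960 1-cell-only genes had a wide peak. Differences within 5 kb turned sign at both strength limits for LMO1 (-185.5 bp), PTPN22 (348 bp), TCAIM (201.5 bp), OXSM (687.5 bp), GHRH (338 bp) and ZFP57 (288.5 bp), with joined peaks for ZFP57 (122.5 bp) and at equal length for CD44 (-652.5 bp). At the q limit the difference became smaller in size at all 8 named 2-cell-only and all 8 named 1-cell-only genes. It was 36 bp at KCNA10, 0 bp at FAM131B and AOX4, and largest at MFAP4 (2313.5 bp). Leaving out 1 library gave -63.5 (without 1-cell replicate 2) to 1241.5 bp for CD44, -7.5 (without 2-cell replicate 1) to 1944.5 bp for PHF19 and -751 to 35 bp (without 2-cell replicate 2) for ZFP57.

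With the replicate block the differences were 0.25, -2.84 and 1.54 for covered length, wide share and distal share (exact permutation p = 1, smallest p possible 0.5). A crossed pairing, added because the correlation was negative, gave the same values. The mean of paired differences is the same in any pairing, and 0.5 allows no call, so neither version could decide anything. The replicate numbers were not shown to pair the libraries. Counting gene starts alone was not run, as the annotation gave no strand. Depth is unknown, so a missing peak may be a peak below the caller's threshold.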
